A study of Mus musculus with 16 samples.

Results

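The genes described here were 9 markers of stromal cells of adipose tissue, followed in inguinal white adipose tissue (iWAT) of mice that made or degraded more hyaluronan. Icam1, Dlk1, F3, Clec11a, Fmo2, Mgp, Gdf10, Vit and Meox2 were taken by name from the 54532 genes of the expression data, with no filter on their values. They were taken as markers of Icam1-positive committed preadipocytes and of F3-positive regulatory stromal cells. This choice was made with earlier results of these data known. RNA was sequenced from 16 libraries of male mice, 4 in each of 4 groups, that were 8 to 10 weeks old when the experiments began and were fed doxycycline in the diet (200 mg/kg) for 5 days. Has2_TG mice (Apn-Has2) carried Apn-rtTA and TRE-Has2, and PH20_TG mice (Apn-PH20) carried Apn-rtTA and TRE-PH20, where PH20 is the hyaluronidase encoded by Spam1. Has2_WT and PH20_WT were the littermate controls of each line and also carried Apn-rtTA, so rtTA and doxycycline were common to all 4 groups. The adiponectin promoter drives rtTA, which is meant to direct both transgenes to adipocytes. RNA of whole tissue does not show whether the stromal cells that the 9 genes mark also expressed them. Each library was taken as 1 mouse; the labels give no animal numbers, so the p-values measure the spread between these libraries.

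Fat pads hold a hierarchy of fibroblast-like progenitors around the mature adipocytes. Interstitial progenitors marked by Dpp4 and Pi16 lie in the connective tissue of the pad and can give rise to Icam1-positive preadipocytes, which are committed to the adipocyte fate. A further stromal population, marked by F3 and often called adipogenesis-regulatory cells, restrains the differentiation of its neighbours through secreted factors. In bulk tissue, fewer cells of a type and less RNA per cell cannot be told apart.

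Each library held 14421692 to 26751729 reads on genes, with a median of 18452544.5. Adipocyte markers were high in every library (summed FPKM of 10 genes from 9112 to 26295), as the tissue label requires. The targeted gene Has2 stood at 0.585 ± 0.176 FPKM in the control and 2.59 ± 0.631 FPKM in the transgenic mice of its line (SD, n = 4 each), with no overlap. Among the PH20_TG libraries, Spam1 reads numbered 6 in the second, 12 in the third and 5 in the fourth. No other library had a Spam1 read, so that expression of the PH20 transgene was not detectable at this depth in the library labelled PH20_TG1. In the PH20 study Has2 itself was split. It stood at 3.32 FPKM in PH20_TG1 and 3.26 FPKM in PH20_TG4, above all Has2_TG libraries (1.86 to 3.24 FPKM), but at 0.380 FPKM in PH20_TG2, 0.0990 FPKM in PH20_TG3 and 0.330 to 0.897 FPKM in PH20_WT. PH20_TG1 and PH20_TG4 were kept in their labelled group, and the changes of Gdf10, Vit, F3 and Mgp are also given without both, which leaves 2 PH20_TG libraries and was chosen after the data were seen. The cause of this split was not tested. The libraries also differed in what else they held. Summed FPKM of 8 B cell markers was 119 to 322 in 4 control libraries (Has2_WT1, Has2_WT2, PH20_WT1 and PH20_WT3) and 1.66 to 6.11 in the other 12, and skeletal muscle markers summed to between 7.92 and 978 FPKM. The part of these tissues in the results was examined only by leaving out the 4 control libraries or by covariates. The covariates were a skeletal muscle score and a B cell score.

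The 9 genes stood at different levels. Averaged within groups, F3 was the most abundant by length-scaled level in 3 of the 4 groups, at 11.5 to 20.2 FPKM, and Gdf10 was above it in Has2_TG, at 15.7 ± 6.11 FPKM (SD, n = 4). Meox2 (7.38 to 9.55 FPKM) and Mgp (5.96 to 13.1 FPKM) followed, Icam1 and Fmo2 lay between 2.45 and 4.81 FPKM, Vit between 1.19 and 2.91 FPKM, Clec11a between 0.660 and 1.26 FPKM, and Dlk1 did not exceed 0.230 FPKM. For 8 of the genes, neighbouring groups in the order of levels overlapped in every case. For Clec11a, the lowest group, Has2_WT, did not overlap with Has2_TG, the group next above it.

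**Figure D1:**
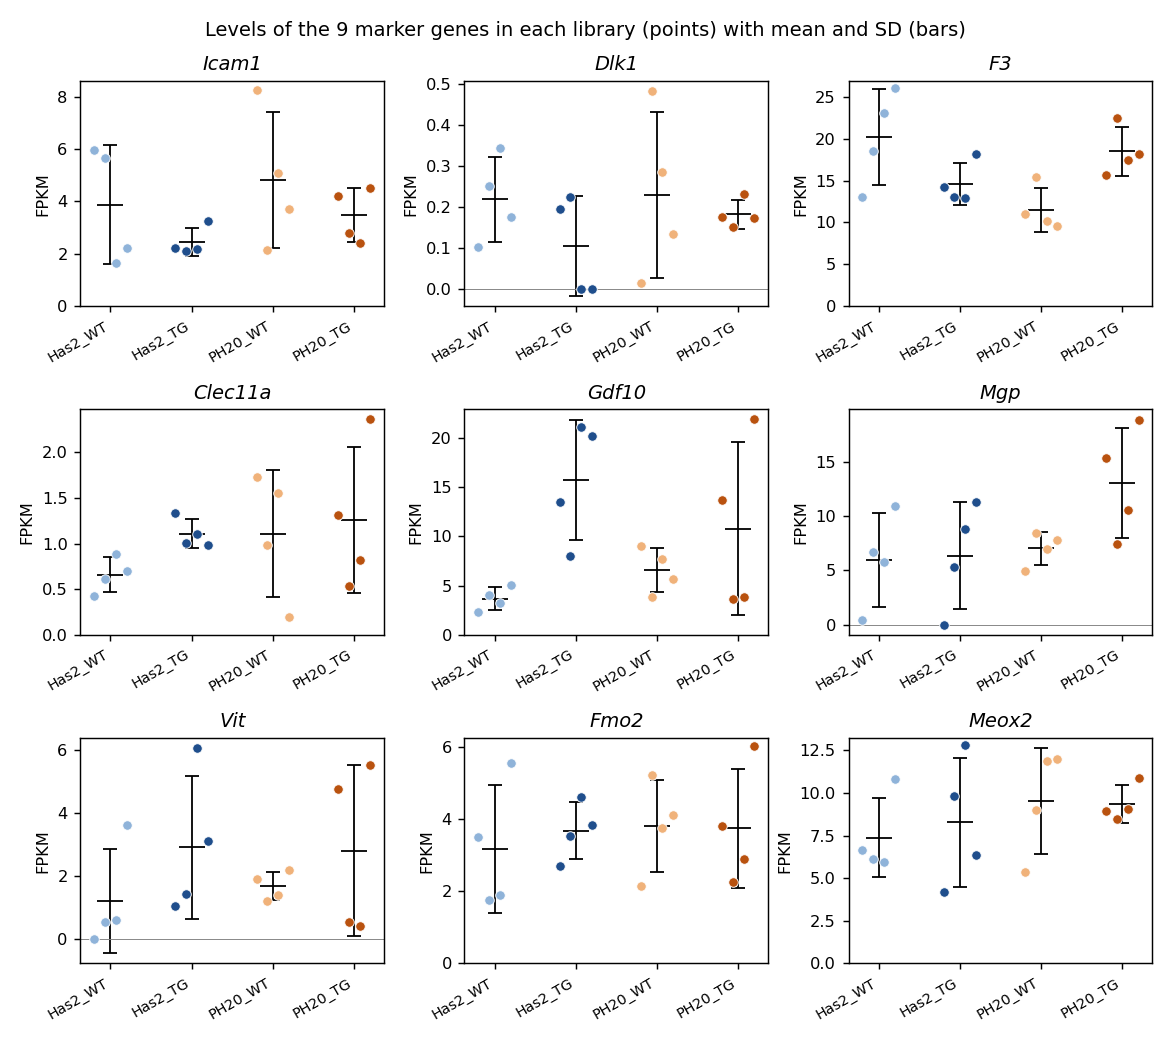
FPKM (vertical axes, linear, one scale per gene) of the 9 marker genes in Has2_WT, Has2_TG, PH20_WT and PH20_TG; each point is 1 library, the horizontal mark is the mean and the whiskers are the SD. All 4 Has2_TG libraries exceed all 4 Has2_WT libraries for Gdf10 and Clec11a, all 4 PH20_TG libraries exceed all 4 PH20_WT libraries for F3, and Mgp is at 0 FPKM in 1 Has2_TG library and at 0.433 FPKM in 1 Has2_WT library.

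In iWAT of Apn-Has2 mice, 1 of the 8 markers that could be tested changed: Gdf10 was 4.08-fold higher, and none was lower. Each gene averaging 50 reads or more was tested with limma, two-sided, on FPKM + 0.1 in log2, and it was called when its unadjusted p-value was under 0.05, which is the cutoff the study used. In this way 6.25% of the 12606 genes tested were higher and 3.75% were lower in Has2_TG, so 1 call among 8 genes is near that background. The median log2 fold change of the 8 markers was 0.21, against -0.03 for all genes tested, and the markers were split, 5 above 0 and 3 below. In Apn-PH20 mice 2 of 8 rose, F3 by 1.61-fold and Mgp by 1.77-fold, and none was lower, against 3.20% of 12532 genes higher and 3.39% lower. The median there was 0.15, against 0.01 for all genes. After Benjamini-Hochberg adjustment over all genes, limma called 0 of the 8 markers in either study, while with voom weights in limma Gdf10 passed in the Has2 study (adjusted p = 0.0414).

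**Figure D2:**
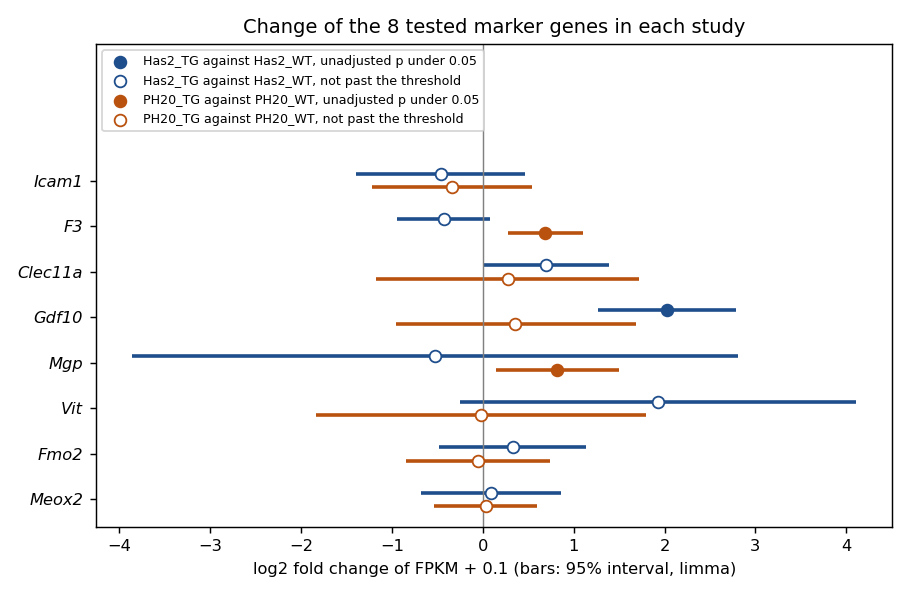
Log2 fold change of FPKM + 0.1 (horizontal axis) of the 8 tested markers in Has2_TG against Has2_WT (blue) and in PH20_TG against PH20_WT (orange), with 95% intervals from limma; filled points have an unadjusted p-value under 0.05. Gdf10 at 2.03 in the Has2 study, and F3 at 0.69 and Mgp at 0.82 in the PH20 study, are the filled points, and the interval of Mgp in the Has2 study runs from -3.86 to 2.81.

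Gdf10 (ENSMUSG00000021943, chromosome 14 from 33923587 to 33937983, GRCm38) encodes a secreted growth factor of the BMP family, also called BMP3b, which is known to restrain adipogenesis. The Has2_WT libraries had 2.31, 4.01, 3.24 and 5.10 FPKM, and the Has2_TG libraries had 13.5, 8.06, 21.1 and 20.2 FPKM. Every transgenic value was above every control value. In log2 the rise was 2.03 (SE 0.34, 95% interval 1.27 to 2.79, limma adjusted p = 0.0639), and it passed the unadjusted threshold. Gdf10 rested on 287 reads or more in every library, so counting error is small beside the spread between mice. In PH20_WT the values were 9.05, 3.87, 7.70 and 5.72 FPKM. In PH20_TG they were 13.7, 3.67, 3.85 and 21.9 FPKM. The PH20_TG libraries fell on both sides of the controls. PH20_TG1 and PH20_TG4 were above all of them, while PH20_TG2 and PH20_TG3 were below all of them by a small margin. PH20_TG1 and PH20_TG4 were also the high libraries for Has2. For Has2, however, PH20_TG2 (0.380 FPKM) lay within the range of PH20_WT (0.330 to 0.897 FPKM). In the PH20 study, the change of Gdf10 in log2 was 0.36 (SE 0.58, 95% interval -0.96 to 1.69), not past the threshold. Without PH20_TG1 and PH20_TG4 it was -0.72 (SE 0.33, limma adjusted p = 0.388), again not past it.

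Gdf10 moved with markers of progenitors in general. The general progenitor list (Pdgfra, Ly6a, Cd34, Dcn and 6 others) summed to 912 to 1619 FPKM in Has2_TG and 406 to 751 FPKM in Has2_WT. In PH20_TG it summed to 1850 FPKM in PH20_TG1 and 1827 FPKM in PH20_TG4, the libraries with high Gdf10, but to 460 FPKM in PH20_TG2 and 650 FPKM in PH20_TG3. Over the 16 libraries, the log2 level of Gdf10 and the mean log2 level of the list had a Pearson's r of 0.89 (permutation p = 1e-05, adjusted p = 0.00152) and a Spearman's rho of 0.91 (permutation p = 1e-05, adjusted p = 7.6e-04). These p-values are the smallest that 100000 permutations can give, and they were adjusted over 152 relations between 8 markers and 19 lists. Here and below, the permutations shuffled all 16 libraries without regard to group, so shifts between groups also enter these p-values. Without the 2 libraries farthest from the median of the list, r was 0.88. It was 0.90 within the Has2 study and 0.94 within the PH20 study, and 0.87 over the 16 libraries with the mean of each group taken off. With the level of this list as a covariate, the log2 fold change of Gdf10 in the Has2 study was 1.12 (SE 0.56, limma adjusted p = 0.641) and no longer passed the unadjusted threshold. The mean log2 level of the list did not overlap between the groups (4.11 to 5.01 in Has2_WT, 5.33 to 6.10 in Has2_TG). This fit therefore cannot tell the list from the genotype, and no conclusion is drawn from it. With the interstitial progenitor list Gdf10 had an r of 0.84 and a rho of 0.91 (permutation p = 9e-05 and 1e-05, adjusted p = 0.00342 and 7.6e-04). The genes most like Gdf10 over the 16 libraries were Loxl1, a lysyl oxidase of the elastic matrix (r = 0.95), and Csf1, the growth factor of macrophages (r = 0.94), given here as a description.

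Vit (ENSMUSG00000024076, chromosome 17 from 78508064 to 78627408) encodes vitrin, a matrix protein, and was the marker most like Gdf10 over the 16 libraries (r = 0.81). The Has2_WT libraries had 0, 0.515, 0.602 and 3.63 FPKM, and the Has2_TG libraries had 1.04, 1.42, 6.06 and 3.10 FPKM. Has2_WT4 lay above 3 of the 4 Has2_TG libraries, and the other Has2_WT libraries lay below all of them. The change in log2 was 1.93 (SE 0.97, 95% interval -0.25 to 4.11, limma adjusted p = 0.569) and did not pass. Without Has2_WT4 it was 2.79 (limma adjusted p = 0.206) and passed. It was 1.04 without Has2_WT1, 0.58 without the Has2_WT libraries high in B cell markers and 0.01 with the general progenitor score as a covariate, and did not pass there. That score did not overlap between Has2_WT and Has2_TG, so the covariate fit cannot tell it from the genotype. Has2_WT1 had 0 reads of Vit, which allows up to 3 reads or 0.0341 FPKM, so the size of the change depends on the 0.1 added before the logarithm. In PH20_WT Vit had 1.89, 1.20, 1.40 and 2.19 FPKM, and in PH20_TG it had 4.76, 0.530, 0.390 and 5.52 FPKM. The PH20_TG libraries were split in the same way as for Gdf10, with a log2 fold change of -0.02 (95% interval -1.84 to 1.80). Without PH20_TG1 and PH20_TG4 it was -1.64 (SE 0.33, limma adjusted p = 0.143) and passed the unadjusted threshold as lower. Vit had an r of 0.74 and a rho of 0.79 with the general progenitor list over 16 libraries (permutation p = 9.4e-04 and 3.9e-04, adjusted p = 0.0159 and 0.00847). Without the 2 farthest libraries r was 0.73, and it was 0.65 and 0.90 within the Has2 and PH20 studies. With the mean of each group taken off, r was 0.64.

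F3 (ENSMUSG00000028128, chromosome 3 from 121723537 to 121735048) encodes tissue factor, the membrane receptor of coagulation factor VII that starts clotting and, as CD142, defines the regulatory stromal cells. In the PH20 study it was higher in every transgenic library: PH20_WT had 11.0, 15.4, 10.2 and 9.55 FPKM, and PH20_TG had 15.6, 22.5, 17.5 and 18.2 FPKM. The groups did not overlap, although PH20_WT2 and PH20_TG1 were close. This rise was 0.69 in log2 (SE 0.18, 95% interval 0.28 to 1.10, limma adjusted p = 0.664), and F3 stayed called without PH20_TG1 and PH20_TG4 (0.81, SE 0.23, limma adjusted p = 0.245). F3 was the only 1 of the 8 tested markers without overlap between the groups in the PH20 study, against 4.54% of all genes tested. In the Has2 study, Gdf10 and Clec11a did not overlap, against 6.19% of all genes. There, F3 had 13.0, 18.5, 23.1 and 26.0 FPKM in Has2_WT and 14.2, 13.0, 12.9 and 18.2 FPKM in Has2_TG. The Has2_WT1 library was at the level of Has2_TG and the other 3 were above all Has2_TG libraries. With all 8 libraries the change was -0.43 in log2 (SE 0.23, limma adjusted p = 0.588), not past the threshold. F3 passed as lower without Has2_WT1 (-0.63), and also without the control libraries high in B cell markers (-0.76), a choice made after the data were seen.

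The change of F3 was called different between the lines at the unadjusted threshold, but not after adjustment. The log2 fold change of the Has2 study minus that of the PH20 study, tested in 1 limma fit of 16 libraries, was -1.12 (SE 0.30, 95% interval -1.75 to -0.48, adjusted p = 0.567). That of Gdf10 was 1.66 (SE 0.72, 95% interval 0.13 to 3.20, adjusted p = 0.613). These were the only 2 of the 8 markers called, 1 in each direction, against 4.03% of 12593 genes called positive and 3.68% called negative. The call of Gdf10 was lost when any one of 8 libraries was left out: Has2_WT1, Has2_WT3, Has2_TG3, Has2_TG4, PH20_WT1, PH20_WT3, PH20_TG2 or PH20_TG3. The call of F3 was kept without each of the 16. Without both PH20_TG1 and PH20_TG4, the difference was -1.24 for F3 (SE 0.35, limma adjusted p = 0.0853) and 2.75 for Gdf10 (SE 0.53, limma adjusted p = 0.0127). Vit was then also called, at 3.57 (SE 1.32, limma adjusted p = 0.215). These libraries were singled out by Has2 and also had the highest Gdf10 and Vit of their group, so the rise in both values is not independent of that choice. The control groups themselves also differed in F3, by a log2 of 0.78 for Has2_WT over PH20_WT (SE 0.21, limma adjusted p = 0.303), although both carry Apn-rtTA alone. The highest PH20_WT library (15.4 FPKM) was above the lowest Has2_WT library (13.0 FPKM), so these groups overlapped. The difference of -1.12 for F3 includes this gap of 0.78 between the controls, with its sign reversed, as its larger part. The transgenic groups stood at 14.6 ± 2.50 FPKM in Has2_TG and 18.5 ± 2.93 FPKM in PH20_TG (SD, n = 4 each) and also overlapped. F3 was 1 of 8 markers called higher in Has2_WT, against 5.61% of all genes, and 0 of 8 were called lower, against 4.66% of all genes. These comparisons share the control libraries with those within each study.

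Over the 16 libraries F3 followed genes that late preadipocytes share with adipocytes. With the list of other committed preadipocyte genes (Pparg, Cebpa, Fabp4, Cd36, Lpl, Col15a1, Col4a1, Sparcl1, Cxcl14 and Ebf2), of which several are also high in mature adipocytes, r was 0.76 and rho was 0.69 (permutation p = 5.3e-04 and 0.00429, adjusted p = 0.0115 and 0.0362). Without the 2 libraries farthest from the median r was 0.78, and it was 0.62 and 0.83 within the studies. With 10 adipocyte markers, r was 0.65 and rho was 0.73 (permutation p = 0.00625 and 0.00217, adjusted p = 0.0633 and 0.0263), with an r of 0.70 without the 2 farthest libraries and of 0.75 and 0.58 within the studies. With the general progenitor list, r was -0.41 and rho was -0.41 (permutation p = 0.113 and 0.115, adjusted p = 0.352 and 0.357), and without the 2 farthest libraries r was -0.18. With the list of other regulatory stromal genes, whose cells F3 defines, r was -0.51 and rho was -0.44 (permutation p = 0.0422 and 0.09, adjusted p = 0.205 and 0.304), with an r of -0.27 without the 2 farthest libraries and of -0.56 and -0.39 within the studies. With the mean of each group taken off, this r was -0.29. Gdf10 had an r of 0.76 and a rho of 0.88 with that list (permutation p = 4.1e-04 and 2e-05, adjusted p = 0.0104 and 0.00101), with an r of 0.93 without the 2 farthest libraries and of 0.79 and 0.81 within the studies. Clec11a (r = 0.56, rho = 0.83) and Vit (r = 0.56, rho = 0.67) passed adjustment with that list by rho (permutation test, adjusted p = 0.00405 and 0.0437) but not by r (adjusted p = 0.175 each). Icam1, Fmo2, Mgp and Meox2 passed by neither. Ncan was among the genes most like F3 (r = 0.86). Of 4 tested genes of the clotting and protease-receptor pathway around tissue factor, 2 rose in Has2_TG. They were Procr, the endothelial protein C receptor and also a progenitor marker, by a log2 of 1.72 (SE 0.28, limma adjusted p = 0.0576), and Tfpi, the inhibitor of tissue factor, by 0.45 (SE 0.20, limma adjusted p = 0.493). In PH20_TG 1 of 5 rose, the inhibitor Tfpi2, by 1.02 (SE 0.41, limma adjusted p = 0.709).

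The promoters of Gdf10 and F3 are shown because these were the markers called, at the unadjusted threshold, in the test of the difference between the lines. RefSeq promoters (GRCm38.p6, 250 bases before to 50 bases after the start of the gene) matched 7 of the 9 markers, and Mgp and Vit are named only. Both windows lie on the plus strand, at chr14:33923337-33923636 for Gdf10 and at chr3:121723287-121723586 for F3. Capitals mark matches on either strand to the GC box GGGCGG, the AP-1 motif TGANTCA and the TATA box TATAAA, which are in 35.7%, 7.81% and 13.6% of 32851 promoters of this length.
Gdf10: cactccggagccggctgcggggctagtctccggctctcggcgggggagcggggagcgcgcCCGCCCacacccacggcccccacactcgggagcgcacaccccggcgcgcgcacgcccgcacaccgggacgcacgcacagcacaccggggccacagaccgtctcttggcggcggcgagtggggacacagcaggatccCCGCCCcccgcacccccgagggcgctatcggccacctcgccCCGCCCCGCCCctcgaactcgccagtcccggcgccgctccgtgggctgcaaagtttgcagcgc
F3: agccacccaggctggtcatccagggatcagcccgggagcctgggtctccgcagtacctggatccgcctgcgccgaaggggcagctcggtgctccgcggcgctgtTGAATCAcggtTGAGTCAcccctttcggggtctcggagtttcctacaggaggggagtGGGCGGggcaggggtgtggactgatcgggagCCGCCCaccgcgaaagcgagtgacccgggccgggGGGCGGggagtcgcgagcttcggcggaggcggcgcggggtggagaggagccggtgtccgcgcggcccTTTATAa
The Gdf10 window (77.3% G and C) held 4 GC boxes, of which the last 2 overlap, and none of the other motifs searched. The F3 window (70.3% G and C) held 3 GC boxes, 2 AP-1 matches and 1 TATA match on the minus strand after the start. CCAAT (in 37.4% of promoters) and the E-box CACGTG (in 7.15%) had no match in either window. A match is a description of the letters only.

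Icam1 (ENSMUSG00000037405, chromosome 9 from 21015985 to 21028817) encodes the adhesion molecule that binds leukocyte integrins, and it marks committed preadipocytes but is also made by endothelial and immune cells. The Has2_WT libraries had 5.98, 5.67, 1.65 and 2.22 FPKM, and the Has2_TG libraries had 2.22, 2.13, 2.18 and 3.26 FPKM. In PH20_WT it had 8.26, 2.16, 5.09 and 3.72 FPKM, and in PH20_TG 4.20, 2.81, 2.43 and 4.52 FPKM. The spread was thus in the control groups: 4 of their libraries had 5.09 to 8.26 FPKM, and these were the same 4 that were high in B cell markers, while the other 12 libraries had 1.65 to 4.52 FPKM. The log2 fold change was -0.46 (SE 0.41, 95% interval -1.39 to 0.46) in the Has2 study and -0.34 (SE 0.39, 95% interval -1.22 to 0.54) in the PH20 study, and neither passed. Without the libraries among these 4, the values were above 0, at 0.32 in the Has2 study and 0.25 in the PH20 study, and did not pass either. Over 16 libraries the genes most like Icam1 were Ccdc88b and Cnn2 (r = 0.94 each), of which Ccdc88b is known from T cells. Of 7 tested ligands and related adhesion molecules, 0 were called in Has2_TG by limma and 1 fell in PH20_TG, the integrin subunit Itgal of lymphocytes, with a log2 fold change of -1.53 (SE 0.57, limma adjusted p = 0.703). Of 8 genes of the NF-kB pathway, which induces Icam1, limma called 0 in either study at that unadjusted threshold. Over the libraries Icam1 followed this list, with an r of 0.87 and a rho of 0.72 (permutation p = 4e-05 and 0.00237, adjusted p = 0.00203 and 0.0263) and an r of 0.89 and 0.81 within the studies. It ran opposite to the other committed preadipocyte genes, with an r of -0.73 and a rho of -0.55 (permutation p = 0.00114 and 0.0292, adjusted p = 0.0173 and 0.153) and an r of -0.57 and -0.84 within the studies. In both cases the 2 farthest libraries were PH20_WT1 and Has2_WT1, which were high in B cell markers, and without them r was 0.77 and -0.50. Neither relation was tested without all 4 such libraries. A gene on the opposite strand that overlaps Icam1 had at most 2 reads in a library.

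**Figure D3:**
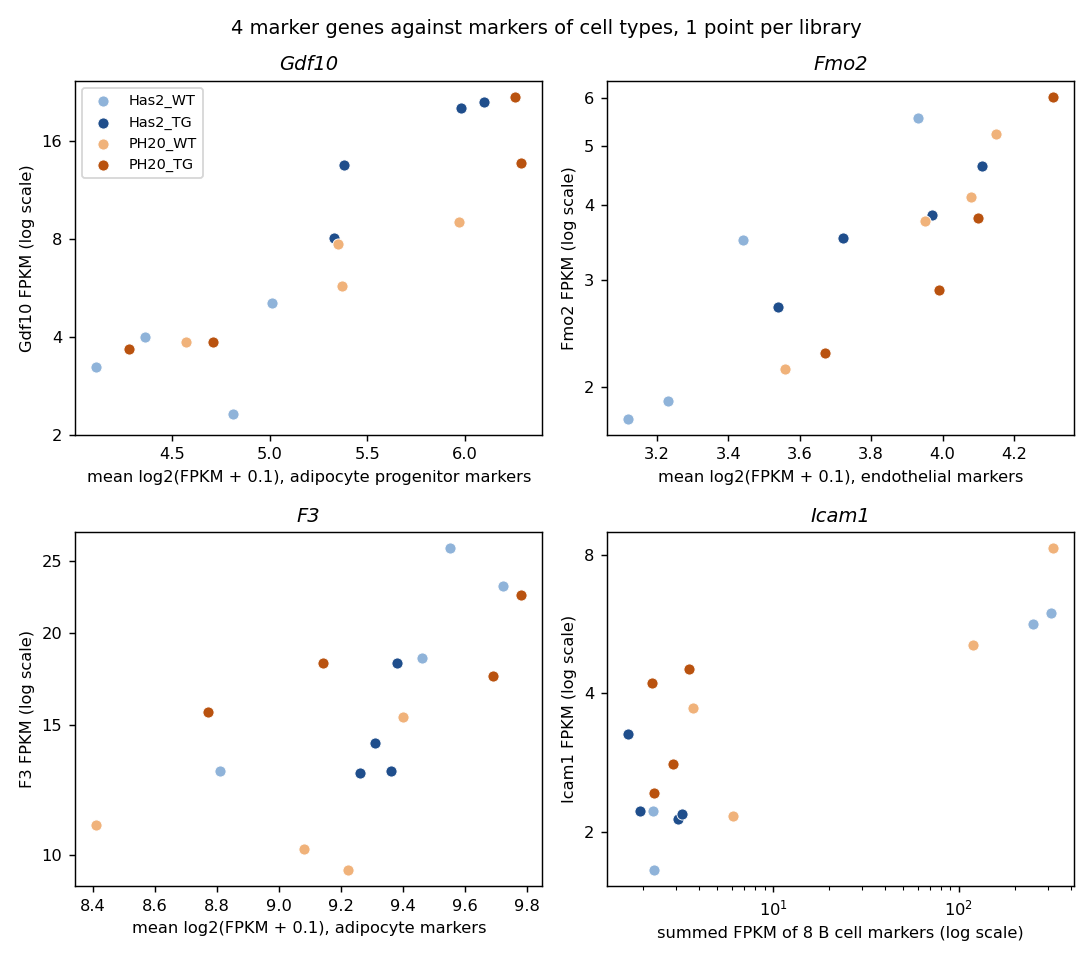
FPKM of Gdf10, Fmo2, F3 and Icam1 (vertical axes, log scale) against the mean log2(FPKM + 0.1) of general progenitor, endothelial and adipocyte markers, and against the summed FPKM of 8 B cell markers (log scale), with 1 point per library coloured by group. Gdf10 rises with the progenitor markers within both studies, Fmo2 rises with the endothelial markers, and the 4 libraries with 119 to 322 FPKM of B cell markers have the highest Icam1.

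Dlk1 (ENSMUSG00000040856, chromosome 12 from 109452823 to 109463336), the preadipocyte factor Pref-1 that blocks differentiation and is lost as adipocytes mature, was barely detected. It had 0 to 43 reads per library and a mean of 18.8 reads, under the minimum for the fit. The Has2_WT libraries had 16, 25, 33 and 19 reads, and the Has2_TG libraries had 28, 21, 0 and 0 reads. A count of 0 allows up to 3 reads, or 0.0283 FPKM in Has2_TG3 and 0.0254 FPKM in Has2_TG4. The difference in mean log2(FPKM + 0.1) was -0.80 (exact permutation p = 0.229, two-sided, where 0.0286 is the smallest possible with 4 against 4), and a difference was not detectable at this depth. In the PH20 study it was 0.01 (exact permutation p = 0.943), with 2 to 43 reads in PH20_WT and 14 to 22 reads in PH20_TG. In its imprinted locus 2 genes could be tested in the Has2 study, and 1 of them, the maternally expressed noncoding RNA Rian, rose by a log2 of 1.24 (SE 0.34, limma adjusted p = 0.205). Of 3 tested there in the PH20 study, limma called 0. Dlk1 is related to the ligands of Notch. Of 9 tested genes of that pathway, 1 fell in Has2_TG, the receptor Notch1, with a log2 fold change of -0.67 (SE 0.26, limma adjusted p = 0.435). In PH20_TG 2 rose, the target Hes1 by 0.75 (SE 0.21, limma adjusted p = 0.664) and the mural cell receptor Notch3 by 0.54 (SE 0.20, limma adjusted p = 0.703).

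Clec11a (ENSMUSG00000004473, chromosome 7 from 44302687 to 44306902), a secreted lectin also named osteolectin that promotes bone formation, was low but ordered in the Has2 study. The Has2_WT libraries had 0.431, 0.616, 0.890 and 0.703 FPKM, and the Has2_TG libraries had 1.33, 1.01, 1.11 and 0.980 FPKM. The groups did not overlap, but the values rested on only 32 to 100 reads. The log2 fold change was 0.70 (SE 0.31, 95% interval -0.00 to 1.39, limma adjusted p = 0.500), just short of the unadjusted threshold. Of the 2 subunits of its receptor, Itga11 rose by 1.52 in Has2_TG (SE 0.46, limma adjusted p = 0.262), and the other was not called (0.03). In PH20_TG limma called 0 of the 2 at the unadjusted threshold. In the PH20 study Clec11a ranged from 0.192 to 1.73 FPKM in the controls and from 0.540 to 2.36 FPKM in PH20_TG, with a log2 fold change of 0.28 (95% interval -1.17 to 1.72), which did not pass.

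Mgp (ENSMUSG00000030218, chromosome 6 from 136872435 to 136875823) encodes matrix Gla protein, a vitamin K-dependent inhibitor of calcification that also binds BMPs. PH20_WT had 4.97, 8.46, 6.96 and 7.81 FPKM, and PH20_TG had 15.4, 7.45, 10.6 and 18.9 FPKM. The groups overlapped at PH20_TG2, and the other 3 PH20_TG libraries exceeded all controls. In log2 it rose by 0.82 (SE 0.30, 95% interval 0.15 to 1.50, limma adjusted p = 0.702). It was not called without PH20_WT1 (0.67), PH20_TG1 (0.72) or PH20_TG4 (0.62), nor without the 2 PH20_WT libraries high in B cell markers (0.59) or without PH20_TG1 and PH20_TG4 together (0.36).

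In the Has2 study Mgp had 0.433, 6.67, 5.81 and 10.9 FPKM in Has2_WT and 0, 5.28, 8.82 and 11.3 FPKM in Has2_TG. Has2_TG1 had 0 reads and Has2_WT1 had 14 reads of Mgp, although these were the most deeply sequenced libraries, while all other libraries of the series had 104 to 320 reads. Of 9197 genes with at least 100 reads in each of the other 14 libraries, only Mgp was under 20% of their lowest value in both, a search made after its values were seen. For Mgp the log2 fold change was -0.53 (SE 1.49) with all 8 libraries and 0.10 without these 2. Of 7 tested partners of Mgp in vitamin K use and mineralisation, 1 changed in Has2_TG: Ank, the exporter of pyrophosphate, fell, with a log2 fold change of -0.77 (SE 0.28, limma adjusted p = 0.385). In PH20_TG limma called 0 of 7 at that threshold.

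Fmo2 (ENSMUSG00000040170, chromosome 1 from 162874317 to 162898726), a flavin monooxygenase, and Meox2 (ENSMUSG00000036144, chromosome 12 from 37108540 to 37179534), a homeobox factor of mesenchyme that is also made in endothelium, did not pass in either study. Fmo2 was 3.18 ± 1.78 FPKM in Has2_WT and 3.68 ± 0.794 in Has2_TG (SD, n = 4 each), a log2 fold change of 0.33 (95% interval -0.48 to 1.14). In the PH20 study it was 3.81 ± 1.28 FPKM in PH20_WT and 3.75 ± 1.65 in PH20_TG (SD, n = 4 each), a log2 fold change of -0.05 (95% interval -0.84 to 0.74). Meox2 was 7.38 ± 2.34 FPKM in Has2_WT and 8.29 ± 3.78 in Has2_TG (SD, n = 4 each), a log2 fold change of 0.09 (95% interval -0.68 to 0.86), and in the PH20 study it was 0.03 (95% interval -0.54 to 0.60). The intervals do not show that the groups were alike.

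Both genes followed endothelial markers (Pecam1, Cdh5, Kdr and 5 others). Fmo2 had an r of 0.85 and a rho of 0.84 with that list over 16 libraries (permutation p = 3e-05 and 1e-04, adjusted p = 0.00203 and 0.0038). Without the 2 farthest libraries r was 0.73, and it was 0.90 and 0.94 within the Has2 and PH20 studies. Meox2 had an r of 0.72 and a rho of 0.70 (permutation p = 0.0018 and 0.00347, adjusted p = 0.0228 and 0.031), an r of 0.70 without the 2 farthest libraries, and an r of 0.65 and 0.72 within the studies. Fmo2 and Meox2 also went together (r = 0.68). Afap1l1 and Bmp6 were most like Fmo2 (r = 0.84 and 0.79), Rapgef3, an exchange factor activated by cAMP, and Ccdc102a were most like Meox2 (r = 0.83 and 0.82). Kazn and Alpk1 were most like Clec11a (r = 0.85 and 0.81), and Adamtsl4 and Agtr1a, an angiotensin receptor, were most like Vit (r = 0.93 each). For Mgp, Grasp had an r of 0.94, which fell to 0.64 without the 2 libraries with almost no Mgp. The libraries share their depth and tissue makeup across genes, so these likenesses are descriptions.

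Other markers of the same lineage set the 9 genes in context. In Has2_TG, 8 of 10 general progenitor genes rose (median log2 fold change 1.37), among them Ly6a, the antigen Sca-1, by 1.31 (SE 0.21, limma adjusted p = 0.0576) and Cd34 by 1.62 (SE 0.30, limma adjusted p = 0.0755). Of 10 interstitial progenitor genes 9 rose (median 1.63). The smallest p-values among them were those of Dact2, an antagonist of Wnt signalling, at 2.30 (SE 0.32, limma adjusted p = 0.0384), and of Anxa3 at 1.38 (SE 0.22, limma adjusted p = 0.0540). By contrast, 0 of the 10 other committed preadipocyte genes passed this threshold in limma (median 0.02), and 1 of 7 other regulatory stromal genes rose, the secreted ligand Gas6, by 0.87 (SE 0.23, limma adjusted p = 0.186). Of 8 endothelial genes 1 rose, the angiopoietin receptor Tek, by 1.27 (SE 0.29, limma adjusted p = 0.111), and of 10 adipocyte genes 1 fell, the glucose transporter gene Slc2a4, with a log2 fold change of -0.55 (SE 0.22, limma adjusted p = 0.446). B cell markers fell beside these rises (3 of 8, median -2.92), and 5 of 8 macrophage markers rose (median 0.74).

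In PH20_TG, 1 of 10 general progenitor genes rose, the receptor Pdgfrb, by 0.47 (SE 0.14, limma adjusted p = 0.664), and 0 of 10 interstitial progenitor genes were called (medians -0.06 and -0.27). Of the other committed preadipocyte genes 2 of 10 rose (median 0.35), the basement membrane collagens Col15a1 by 0.72 (SE 0.13, limma adjusted p = 0.563) and Col4a1 by 0.53 (SE 0.21, limma adjusted p = 0.709). None of 7 regulatory stromal genes was called (median 0.15), nor any of the 8 endothelial and 10 adipocyte genes. Markers of other tissues moved more: 9 of 10 skeletal muscle genes (median -3.81), 4 of 8 B cell genes (median -3.02) and 4 of 8 T cell genes (median -2.14) were lower. Of 14 tested genes of BMP signalling, to which Gdf10 belongs, 3 rose in Has2_TG (median 0.28), among them the ligands Bmp4 by 1.08 (SE 0.35, limma adjusted p = 0.306) and Bmp6 by 0.61 (SE 0.21, limma adjusted p = 0.355). The remaining one was an inhibitor of BMPs, and no target gene of the pathway was called there. In PH20_TG limma called 0 of 12 at that threshold. Of the paralogs of the markers, limma called 0 of 6 in the Has2 study and 0 of 5 in the PH20 study at that threshold.

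**Figure D4:**
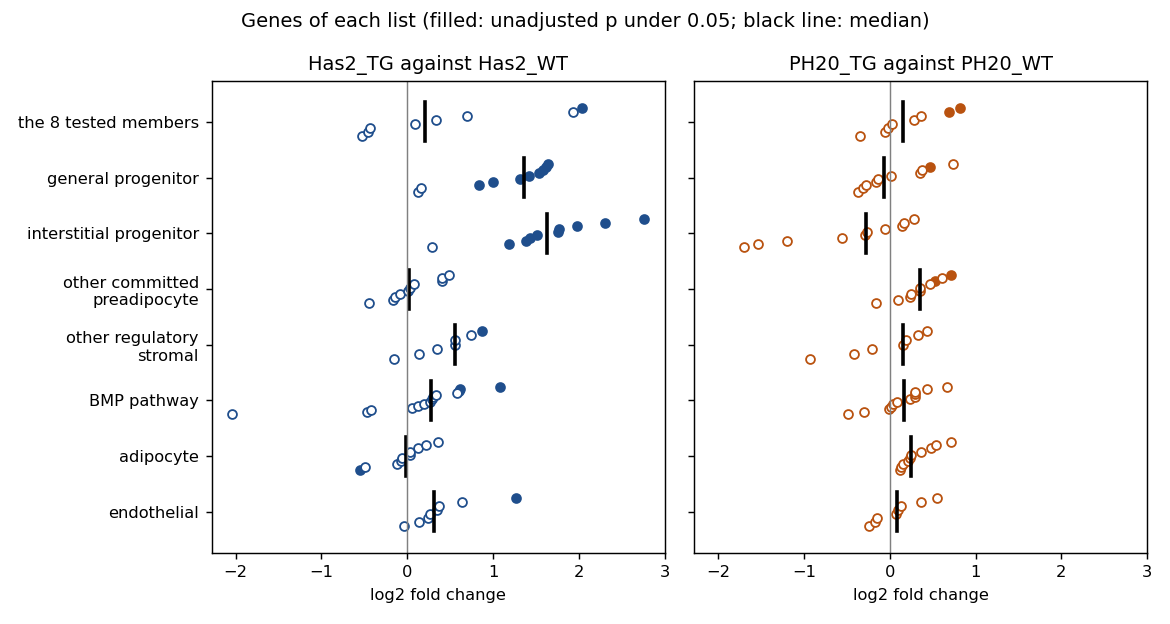
Log2 fold change (horizontal axis) of each tested gene of 8 lists in Has2_TG against Has2_WT (left) and PH20_TG against PH20_WT (right); filled points have an unadjusted p-value under 0.05 in limma and the black line is the median of the list. In the Has2 study the 2 progenitor lists lie to the right, with medians of 1.37 and 1.63, while the 8 markers (median 0.21) and the other committed preadipocyte genes (median 0.02) lie around 0.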

How the data were processed

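Total RNA of iWAT from 16 male mice was sequenced after TRIzol extraction and TruSeq library preparation. Reads were aligned by the authors with STAR (version 2.7.9a) against GRCm38, with FastQC (version 0.11.9), MultiQC (version 1.12) and DESeq2 also named in the submitters' processing notes, and deposited FPKM per gene and library with each gene's length. Each FPKM value was multiplied by length and divided by the smallest nonzero product of its library, taken as a single read. On that scale 100% of the values were whole reads (within 0.01, wider for very high counts). The library totals behind FPKM were 0.886 to 1.14 times the sums of reads. The deposited FPKM thus carry a scaling between libraries whose method is not given in the sources used here. Each study was fitted separately in R (version 4.3.3) by limma (version 3.58.1; moderated two-sided test, variance trend) on log2(FPKM + 0.1), keeping genes that averaged 50 reads or more, and a fit of 16 libraries gave the difference between the studies and the control groups. Adjusted p-values are Benjamini-Hochberg over all genes tested. A fold change is on the scale of FPKM + 0.1 and understates the change of low genes. DESeq2 was not used. The main fits took the deposited FPKM, and the recovered reads served the minimum of reads, the voom weights and the median-of-ratios scaling. Of 120 pairs of libraries none agreed within sampling noise (lowest chi-square per degree of freedom 28.7). The procedure was also run on simulated counts. These had the same spread setting for all genes and no shared tissue makeup, so that run does not cover the spread seen here. Reads from overlapping genes on the 2 strands are not told apart.

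The 9 markers and the gene lists were chosen with earlier results of these data known. Beside the markers, Has2 and Spam1, the genes named are up to 2 called genes per list and study with the smallest p-value and, for each marker in the fit, the 2 genes with the highest r, except genes that are not reported here. The other settings tried were adding 1 before the logarithm, every gene with a read, genes averaging 1 FPKM or more, median-of-ratios scaling, voom weights, the replicate number as a block, all 16 libraries in 1 fit, a score for skeletal muscle, B cells or general progenitors as a covariate, and each library left out. Leaving out Has2_WT1 and Has2_TG1, or the 4 control libraries high in B cell markers, or PH20_TG1 and PH20_TG4, was added after the data were seen. Floors of 3 reads cover counting error only.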

Additional observations from a re-analysis of the deposited data

Results flagged for a closer look

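Of 36 sets of 4 libraries (9 markers in 4 groups), 3 held a library far from the other 3 by Dixon's criterion, which chance gives in about 1 of 20 sets. Icam1 was 3.26 FPKM in Has2_TG4 and 2.13 to 2.22 FPKM in the other Has2_TG libraries. Vit was 3.63 FPKM in Has2_WT4 and 0 to 0.602 FPKM in the other Has2_WT libraries. Meox2 was 10.8 FPKM in Has2_WT4 and 5.92 to 6.64 FPKM in the other Has2_WT libraries. At the unadjusted threshold, limma's test of the difference called the changes in the 2 studies different for F3 and Gdf10. The log2 differences were -1.12 (adjusted p = 0.567) for F3 and 1.66 (adjusted p = 0.613) for Gdf10. Neither passed after adjustment in the fit of all libraries. The call of Gdf10 was lost when any one of 8 libraries was left out, and the control groups themselves differed in F3.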

How the results depend on the processing

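The alternatives turned the direction of no called marker. After adjustment the counts of called markers were 0 in each comparison and direction. The exceptions were Gdf10 in the difference without PH20_TG1 and PH20_TG4 (limma adjusted p = 0.0127) and Gdf10 in the Has2 study with voom weights, with the skeletal muscle score as a covariate and without Has2_WT4 (limma adjusted p = 0.0414, 0.0368 and 0.0307; 0.0613 to 0.641 otherwise). The count higher in Has2_TG (1) was 2 with a pseudocount of 1 and with median-of-ratios scaling, where Clec11a passed (0.35 and 0.70), 2 with the replicate block, where Vit passed (1.93), and 0 with the progenitor score. The count lower in Has2_TG (0) was 1, F3, with the B cell score (-0.77) and under both alternatives added for the Has2 study (-0.62 without Has2_WT1 and Has2_TG1). The count higher in PH20_TG (2) was 1 with all 16 libraries in 1 fit, with the B cell score (Mgp 0.54), without the libraries high in B cell markers and without PH20_TG1 and PH20_TG4. Without these last 2, the count lower in PH20_TG (0) was 1, Vit (-1.64). The count with a positive difference between the studies (1) was 0 without Has2_WT1 and Has2_TG1 and without the libraries high in B cell markers (Gdf10 1.51 and 1.05), and 2 without PH20_TG1 and PH20_TG4. With each library left out, the count higher in Has2_TG ranged from 1 to 2 and the count lower there from 0 to 1. The count higher in PH20_TG ranged from 1 to 2, and the count lower there did not change. The count with a positive difference ranged from 0 to 2, and the count lower in Has2_WT than in PH20_WT from 0 to 1. Clec11a passed in the controls without PH20_WT4, and Vit in the controls and in the difference (-2.30 and 2.80) without Has2_WT4. Dlk1 ranged from -1.09 to -0.53 in the Has2 study and from -0.41 to 0.36 in the PH20 study.

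The replicate numbers did not pair the libraries throughout: same-numbered libraries had correlations of -0.18 to 0.13 in the Has2 study and -0.04 to 0.42 in the PH20 study. The same-numbered library was the closest match for number 2 in the Has2 study and for numbers 1 and 2 in the PH20 study. With the replicate block, 633 genes were called higher and 669 lower in PH20_TG, against 401 and 425 without it. In Has2_TG these counts were 750 and 403, against 788 and 473. Whether same-numbered libraries were handled together was not tested. The replicate block changed no other marker's call. Clec11a fell under the minimum when genes had to average 1 FPKM, without Has2_TG1, and without Has2_WT1 and Has2_TG1, so no value is given there. Depth limits Dlk1 and Clec11a.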
